A study of Mus musculus with 6 samples.

Results

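Ly6a, Ly6c1, Ly6e and Ly6i are members of the Ly6 family of small cell-surface proteins and lie side by side in a cluster on mouse chromosome 15. The 4 genes are the Ly6 genes of this cluster taken here besides Ly6c2, which carries the monocyte marker Ly6C and is given only as a neighbour. They were taken by symbol from a table of 57010 genes. They had been selected on the same raw counts, with the difference between ICI and isotype libraries in view, so that difference is described here and not tested. RNA was measured in cells sorted from mouse hearts as positive for CD45, the antigen of leukocytes, and negative for CD90.2 (Thy1), an antigen of T cells. Every mouse carried the genotype Ova DTG, which the series describes as expressing ovalbumin in the heart alone, and had received OTI cells, CD8 T cells specific for ovalbumin. The 3 libraries labelled ICI came from mice given antibodies to CTLA-4 (200 µg) and PD-1 (200 µg), immune checkpoint inhibitors that the labels describe as inducing myocarditis. The 3 libraries labelled isotype came from mice given isotype control antibody, and the titles of both groups name myocarditis. The labels number 3 biological replicates per group but do not say whether a library holds 1 heart or several, nor the age of the mice. Every direction below rests on these labels, since the treatment is an antibody and no transcript in the table checks it. In the libraries labelled ICI, 24 of 28 interferon gamma response genes and 6 of 8 classical monocyte markers were lower and all 10 resident macrophage markers higher. Over all genes tested, 33.9% were called lower and 35% higher. Whether the labels of the groups were exchanged was not tested, and an exchange would reverse every direction given.

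Ly6 proteins share a fold held by disulfide bonds and are fixed to the outer membrane leaflet by a glycosylphosphatidylinositol (GPI) anchor. Ly6a, also called Sca-1, is used to mark blood stem cells and is found on lymphocytes and endothelium; Ly6c1 and Ly6c2 encode the closely related forms of Ly6C, found on monocytes, endothelium and some lymphocytes. Ly6e is broadly expressed, is a receptor for syncytin-A in the mouse placenta and limits the entry of coronaviruses. Ly6a, Ly6e, Ly6c and Ly6i are known to respond to interferons.

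The genes lie next to each other, and part of their sequence is so alike that short reads can be assigned to the wrong gene. In the RefSeq annotation of GRCm38.p6 the order of protein-coding genes on chromosome 15 is Ly6m, Ly6e, Ly6i, Ly6a, Ly6c1, Ly6c2, Ly6a2 and Ly6g. The submitters' processing notes name GRCm39, a later build, so gene coordinates are not given. The first 300 coding bases of the closest pairs are shown because they set how far the counts of each gene can be trusted. They were read 5′ to 3′ from the longest protein-coding transcript of each gene in GENCODE M21, and capitals mark the bases that differ from the partner in the pair.
Ly6c1, against Ly6c2: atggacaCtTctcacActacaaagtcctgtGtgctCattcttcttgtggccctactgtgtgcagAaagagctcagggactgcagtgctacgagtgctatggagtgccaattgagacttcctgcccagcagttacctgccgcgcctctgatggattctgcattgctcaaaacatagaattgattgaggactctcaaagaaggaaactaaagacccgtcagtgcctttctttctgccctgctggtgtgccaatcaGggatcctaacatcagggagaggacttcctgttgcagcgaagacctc
Ly6c2, against Ly6c1: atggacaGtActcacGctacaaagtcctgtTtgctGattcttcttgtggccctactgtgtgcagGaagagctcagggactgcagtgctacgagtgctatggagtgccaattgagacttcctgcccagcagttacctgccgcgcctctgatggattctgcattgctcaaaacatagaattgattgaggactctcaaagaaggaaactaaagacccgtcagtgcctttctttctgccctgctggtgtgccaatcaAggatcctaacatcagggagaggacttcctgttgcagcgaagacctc
Ly6a, against Ly6i: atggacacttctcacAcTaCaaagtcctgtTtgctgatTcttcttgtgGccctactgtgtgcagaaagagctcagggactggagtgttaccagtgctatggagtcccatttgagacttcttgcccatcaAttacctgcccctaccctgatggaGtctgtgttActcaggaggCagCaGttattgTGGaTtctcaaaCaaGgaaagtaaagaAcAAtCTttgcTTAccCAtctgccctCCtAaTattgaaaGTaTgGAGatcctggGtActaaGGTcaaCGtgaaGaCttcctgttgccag
Ly6i, against Ly6a: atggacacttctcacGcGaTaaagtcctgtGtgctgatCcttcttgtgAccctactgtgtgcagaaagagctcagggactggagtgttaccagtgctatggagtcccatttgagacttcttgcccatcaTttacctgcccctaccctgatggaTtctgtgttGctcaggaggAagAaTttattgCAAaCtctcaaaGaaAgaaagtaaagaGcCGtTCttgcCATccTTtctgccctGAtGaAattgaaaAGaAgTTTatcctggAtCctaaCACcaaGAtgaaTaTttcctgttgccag

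Over the whole coding sequence Ly6c1 and Ly6c2 were identical at 387 of 396 positions (97.7%), and 7 of their 9 differences lie in the stretch shown. Ly6a and Ly6i were identical at 350 of 405 positions (86.4%), with 47 of 55 differences in the stretch shown. Ly6e shared between 49.9% and 52.6% of aligned positions with the other genes. Transcripts of Ly6c1 and Ly6c2 had 581 runs of 31 bases in common, which is 33% of those of Ly6c1 and 21.4% of those of Ly6c2. Of the 31-base runs of each gene, 53.2% for Ly6c1, 68.1% for Ly6a, 80.8% for Ly6i and 99.6% for Ly6e occurred in the transcripts of no other gene. Ly6e is therefore the member whose counts are least exposed to reads of its relatives, and Ly6c1 the most exposed. The sources used here do not say how the deposited counts divided shared reads.

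**Figure D1:**
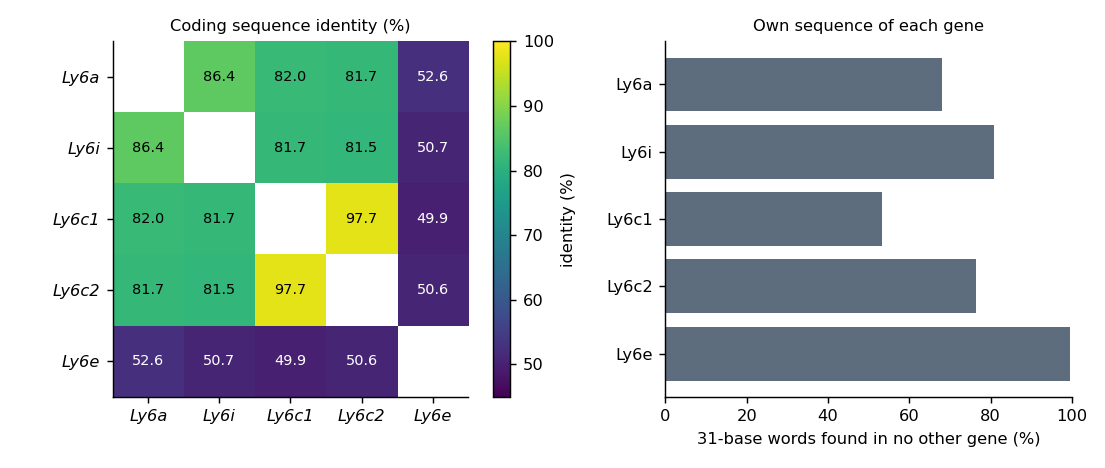
Left, identity of aligned coding positions (%) for each pair among Ly6a, Ly6i, Ly6c1, Ly6c2 and Ly6e in GENCODE M21. Right, the share (%) of the 31-base runs of each gene's transcripts found in no other gene; Ly6c1 stands lowest at 53.2% and Ly6e highest at 99.6%.

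Among the RefSeq promoter windows of GRCm38.p6 (250 bases before to 50 after a start site), Ly6c1 and Ly6c2 had entries. Ly6a, Ly6e and Ly6i had none, so their promoters were not searched. The core of the interferon-stimulated response element (GAAA, any 2 bases, GAAA) and the gamma-activated site (TTCNNNGAA) were searched on both strands. Neither occurred in the windows of Ly6c1 or Ly6c2; among all 32851 windows, 3.44% held the first and 8.3% the second.

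Total counts ran from 21528274 to 30736316 per library. Ptprc, which encodes CD45, was at 1234 to 1423 CPM (counts scaled to a common library total) in ICI libraries and 949 to 1065 CPM in isotype libraries, and Thy1 was at most 0.0929 CPM in any library. Replicate 3 of each group carried more Xist than Y-linked counts, unlike the other 4 libraries, so each group held libraries of unlike sex; with libraries numbered 1 and 2 only, the fitted log2 values were -5.24 for Ly6a, -4.17 for Ly6i, -1.56 for Ly6c1 and -0.70 for Ly6e (ICI over isotype). With edgeR's quasi-likelihood test over 14575 genes, 10040 (68.9%) passed a Benjamini-Hochberg adjusted p of 0.05, 5102 (35%) higher and 4938 (33.9%) lower in ICI libraries. The normalization moves this split: upper-quartile factors gave 6155 higher and 3849 lower, with the median of all tested genes at 0.21 on the log2 scale, against 0.03 with the factors used here.

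Ly6a was the member that differed most. Its level was 62.3, 95.7 and 84.6 CPM in ICI replicates 1, 2 and 3, against 2706, 2496 and 2234 CPM in isotype replicates 1, 2 and 3. The groups were far apart: the lowest isotype library stood 23.3-fold above the highest ICI library. The means were 80.9 ± 17.0 CPM in ICI libraries and 2479 ± 237 CPM in isotype libraries (SD, n = 3 each), and the fitted log2 fold change was -5.14 (SE 0.18), 35.3-fold lower in ICI libraries. By mean CPM, Ly6a ranked 2633 of 14575 genes in ICI libraries and 27 in isotype libraries, and its fitted fold change was the 30th lowest. In sorted bulk samples such as these, fewer cells of a type and less RNA per cell cannot be told apart.

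Ly6i, a GPI-anchored relative of Ly6a that is less studied, was the member that differed most after Ly6a. It was at 19.1, 31.25 and 11.3 CPM in ICI replicates 1, 2 and 3, against 407, 381 and 261.5 CPM in isotype replicates 1, 2 and 3. Again no library of one group reached the other, with an 8.37-fold gap between the nearest libraries. The means were 20.6 ± 10.0 CPM in ICI libraries and 349.8 ± 77.5 CPM in isotype libraries (SD, n = 3 each), and the fitted log2 fold change was -4.28 (SE 0.47), 19.5-fold lower in ICI libraries. ICI replicates 2 and 3 stood at 152% and 55.1% of their group's mean, a wider spread than for Ly6a.

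Ly6c1 was scarce. It had 56, 71 and 61 counts in ICI replicates 1, 2 and 3, against 205, 174 and 152 counts in isotype replicates 1, 2 and 3, which is 2.76 ± 0.276 CPM in ICI libraries and 6.31 ± 1.19 CPM in isotype libraries (SD, n = 3 each). The groups did not overlap, and isotype replicate 3, the lowest of its group, stood 1.65-fold above the highest ICI library. The fitted log2 fold change was -1.39 (SE 0.21), 2.62-fold lower in ICI libraries. Counted over each group, the ratio of isotype to ICI per total count was 2.26. No interval is given for it, since pooled reads do not carry the spread between replicates. PCR reads without molecular identifiers are also not independent molecules.

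Ly6e was the most abundant member in ICI libraries and differed least; in isotype libraries its CPM lay close to that of Ly6a. It was at 1624, 1926 and 1363 CPM in ICI replicates 1, 2 and 3, against 2628, 2403 and 2595 CPM in isotype replicates 1, 2 and 3. The isotype libraries lay close together, the ICI libraries spread more widely, and the groups did not overlap. The means were 1637 ± 282 CPM in ICI libraries and 2542 ± 122 CPM in isotype libraries (SD, n = 3 each), with a fitted log2 fold change of -0.83 (SE 0.13), 1.78-fold lower in ICI libraries. Ly6e ranked 57 of 14575 genes by mean CPM in ICI libraries and 26 in isotype libraries.

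**Figure D2:**
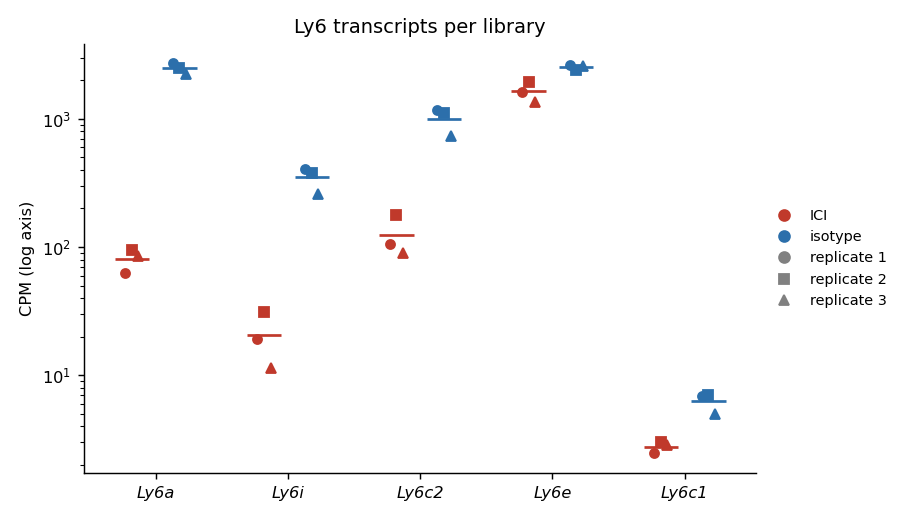
CPM per library on a log axis for Ly6a, Ly6i, Ly6c2, Ly6e and Ly6c1, with ICI left of isotype for each gene; marker shape gives the replicate and the line the group mean of 3 libraries. No gene overlaps between the groups, and the distance runs from 35.3-fold for Ly6a to 1.78-fold for Ly6e as fitted.

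All 4 members were thus lower in ICI libraries without overlap, in a table where 28.2% of the tested genes were lower without overlap and 33.9% passed the test as lower. Over both directions 73.5% of the tested genes did not overlap between the groups. The members were chosen by this contrast, so nothing is read from their count. Their median log2 fold change was -2.84, against 0.03 over all genes tested. The neighbour Ly6c2 stood between Ly6i and Ly6c1: it was at 104.8, 177.6 and 90.21 CPM in ICI replicates 1, 2 and 3, against 1169, 1112 and 739.5 CPM in isotype replicates 1, 2 and 3, with a fitted value of -3.22 on the log2 scale (SE 0.35; adjusted p = 0.000439, edgeR).

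Levels of different genes were compared per kilobase of the longest protein-coding transcript. In ICI libraries the order was Ly6e (718 CPM per kb), Ly6c2 (151), Ly6a (84.7), Ly6i (17.8) and Ly6c1 (3.27), and each gene's 3 libraries lay apart from those of its neighbours in this order. In isotype libraries the order was Ly6a (2595 CPM per kb), Ly6c2 (1225), Ly6e (1114), Ly6i (303) and Ly6c1 (7.48). There Ly6c2, at 899.6 to 1422 CPM per kb, overlapped Ly6e, at 1053 to 1152 CPM per kb, so the order of these neighbours is not settled. With these lengths Ly6a moved past Ly6c2 and Ly6e between the groups. The order depends on the transcripts used. Annotated protein-coding transcripts run from 431 to 2281 bases for Ly6e, 336 to 955 for Ly6a and 538 to 822 for Ly6c2.

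The make-up of the Ly6 counts differed accordingly. Of the counts of the 4 members and Ly6c2 together, Ly6e held 86.2% to 89.6% in ICI libraries and 37.5% to 44.5% in isotype libraries. Ly6a held 3.44% to 5.45% in ICI libraries and 38.3% to 39.1% in isotype libraries. The 5 genes made up 0.155% to 0.223% of all counts in ICI libraries and 0.583% to 0.692% in isotype libraries.

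Count ratios within a library do not depend on its total. Ly6i stood at 18.2, 17.6 and 12.6 counts per 100 Ly6c2 counts in ICI replicates 1, 2 and 3, against 34.8, 34.3 and 35.4 in isotype replicates 1, 2 and 3. This ratio was nearly constant over the isotype libraries although both genes were lower in isotype replicate 3. Ly6c1 stood at 2.34, 1.69 and 3.14 counts per 100 Ly6c2 counts in ICI replicates 1, 2 and 3, against 0.594, 0.635 and 0.669 in isotype replicates 1, 2 and 3. Ly6c1 was thus a larger part of the Ly6c pair in every ICI library; with coding sequences 97.7% identical, whether some Ly6c1 counts are reads of Ly6c2 was not tested. Ly6i per 100 Ly6a counts overlapped between the groups, at 30.63, 32.64 and 13.4 in ICI replicates 1, 2 and 3 and 15.02, 15.28 and 11.71 in isotype replicates 1, 2 and 3.

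**Figure D3:**
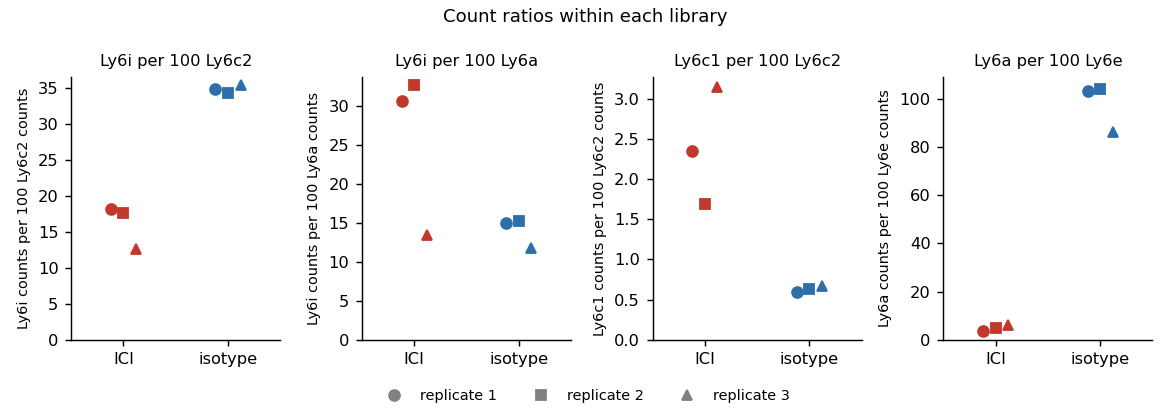
Counts of a gene per 100 counts of another in the same library, in 4 panels with linear axes from 0 and ICI left of isotype; each point is a library and its shape the replicate. Ly6i per 100 Ly6c2 lies at 34.3 to 35.4 in isotype libraries and 12.6 to 18.2 in ICI libraries, and Ly6i per 100 Ly6a overlaps between the groups.

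Within a group the genes also varied together in part. ICI replicate 2 was the highest ICI library for all 4 members and Ly6c2. ICI replicate 3 was the lowest for Ly6e, Ly6i and Ly6c2, and ICI replicate 1 for Ly6a and Ly6c1. Isotype replicate 3 was the lowest isotype library for Ly6a, Ly6c1, Ly6i and Ly6c2 and isotype replicate 2 for Ly6e. The summed level of 28 interferon gamma response genes had the same extremes in ICI libraries as Ly6i, at 3796, 7044 and 2434 CPM in ICI replicates 1, 2 and 3, against 15173, 16186 and 12904 CPM in isotype replicates 1, 2 and 3. In isotype libraries Ly6i was highest in replicate 1 and this list in replicate 2. The ICI extremes were not particular to this list. The type I interferon response list shared them, at 2410, 3129 and 2090 CPM in ICI replicates 1, 2 and 3. So did the interferon receptor, classical monocyte and erythroid lists, while others, such as the B cell list, did not. The summed level of 7 classical monocyte genes other than Ly6c2 was 894, 966 and 781 CPM in ICI replicates 1, 2 and 3, against 5814, 7893 and 3519 CPM in isotype replicates 1, 2 and 3. Their part in the Ly6 values was not tested.

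The genes whose profile lay nearest to each member were sought in 8450 tested genes, predicted ones left out, whose mean over the 6 libraries reached 10 CPM. Nearness was the smallest root mean square difference in centred log2 CPM over the 6 libraries. The centring spans both groups, so this difference depends largely on the fold change between them, with which the members had been selected. The 3 genes nearest to Ly6c1 (-1.39 on the log2 scale) stood at -1.36, -1.29 and -1.39. Those nearest to Ly6e (-0.83) stood at -0.84, -0.78 and -0.81. Nothing beyond a like fold change is read from nearness or from the ranks of Ly6c2. Nearest to Ly6a were Serpina3g, a serine protease inhibitor (difference 0.242), Pdcd1lg2, which encodes the PD-1 ligand PD-L2 (0.258), and AA467197 (0.265). Serpina3g was at 31.1 CPM in ICI libraries and 881 CPM in isotype libraries. Nearest to Ly6i were Cfb, complement factor B (difference 0.159), the chemokine Cxcl9 (0.187) and the protease inhibitor Serpina3f (0.25). Cfb was at 114 CPM in ICI libraries and 2038 CPM in isotype libraries on average. Nearest to Ly6e were Mapk9, the kinase JNK2 (difference 0.0574), the class I gene H2-K1 (0.0611) and Casp1 (0.0613), and nearest to Ly6c1 were Ppif, the mitochondrial protein cyclophilin D (0.0438), the RNA helicase Ddx39 (0.0527) and Mrps10 of the mitochondrial ribosome (0.0714). Among the 8450 genes Ly6c2 ranked 29 in nearness to Ly6i, 47 to Ly6a, 6921 to Ly6c1 and 7937 to Ly6e.

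Beyond the members, the list of the wider Ly6/uPAR family held 39 genes, of which 37 were matched to an identifier. Most were silent or close to it: 11 had 0 counts in all libraries, 17 had some counts but too few for the test (at most 0.743 CPM) and 9 were tested. Of these 9, 2 passed the test as higher and 3 as lower in ICI libraries, against 35% and 33.9% of all genes tested, with a median log2 fold change of -0.47 against 0.03. Ly6c2 was described above. Plaur, the receptor for urokinase, fell 1.78-fold, at 269 ± 18.6 CPM in ICI libraries and 416 ± 55.1 CPM in isotype libraries (SD, n = 3 each, edgeR adjusted p = 0.000103).

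Ly6d, a marker of early B-lineage cells, went the other way. It was at 22.0, 34.2 and 82.3 CPM in ICI replicates 1, 2 and 3, against 0.677, 0.811 and 1.92 CPM in isotype replicates 1, 2 and 3. Replicate 3 was the highest library of each group and the groups did not overlap. The fitted rise was 34.2-fold (log2 fold change 5.10, SE 0.74, edgeR adjusted p = 0.00228); the log2 fold change was 4.43 without ICI replicate 3 and 5.70 without isotype replicate 3. B cell genes moved beside it: 7 of 7 were higher, against 35% of all genes tested. Their summed level was 232 to 777 CPM in ICI libraries and 4.10 to 9.79 CPM in isotype libraries, and their part in the level of Ly6d was not tested.

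Both remaining calls were at low level and are named after their values were seen. Gpihbp1, which holds lipoprotein lipase on capillary endothelium, had 66 counts over the ICI libraries and 10 over the isotype libraries (log2 fold change 2.79, edgeR adjusted p = 0.00212; 3.97 without isotype replicate 2). Ly6g, the marker of neutrophils, had 33 counts over the ICI libraries and 82 over the isotype libraries (log2 fold change -1.19, edgeR adjusted p = 0.0243). Its call was lost with DESeq2, with library totals alone, with the length trend removed, without ICI replicate 1, without ICI replicate 3, without isotype replicate 2 and with libraries numbered 1 and 2 only. Without isotype replicate 2 the number of family genes called higher was 4: Cd177 and Ly6g6d joined Ly6d and Gpihbp1.

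Among family genes of at least 1 CPM in either group, 3 did not pass the test. Cd177, found on neutrophils, was at 27.1 ± 5.93 CPM in ICI libraries and 13.3 ± 8.56 CPM in isotype libraries (SD, n = 3 each, edgeR adjusted p = 0.189). Lynx1, a modulator of nicotinic acetylcholine receptors, was at 3.39 ± 2.02 CPM in ICI libraries and 4.04 ± 1.36 CPM in isotype libraries (SD, n = 3 each, edgeR adjusted p = 0.355); it was called lower by edgeR without ICI replicate 3 (log2 fold change -1.02, adjusted p = 0.0258) and with libraries numbered 1 and 2 only (log2 fold change -1.31, adjusted p = 0.00131). Cd59a, an inhibitor of the complement membrane attack complex, was at 0.696 ± 0.170 CPM in ICI libraries and 1.104 ± 0.882 CPM in isotype libraries (SD, n = 3 each, edgeR adjusted p = 0.17).

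**Figure D4:**
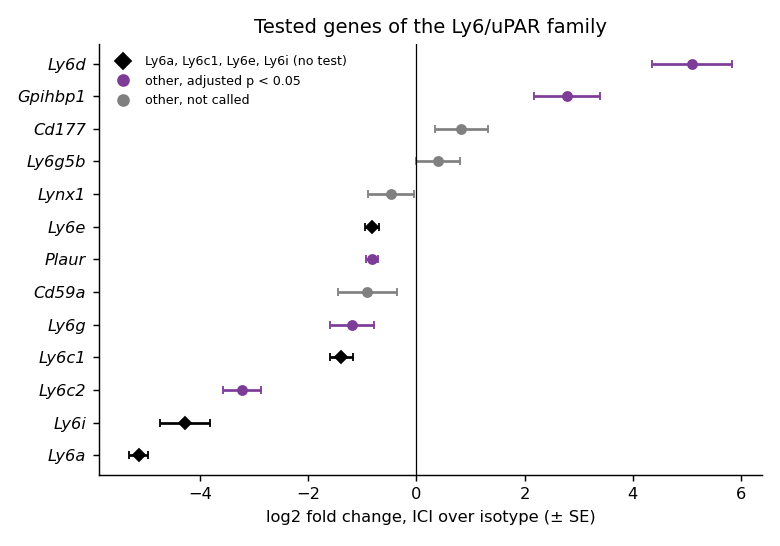
Log2 fold change, ICI over isotype, with SE, for the 13 genes of the Ly6/uPAR family that entered the fit. Ly6a, Ly6i, Ly6c1 and Ly6e are diamonds with no test; Ly6c2, Ly6g and Plaur on the left and Ly6d and Gpihbp1 on the right passed the test, from -5.14 for Ly6a to 5.10 for Ly6d.

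Ly6 proteins need a GPI anchor, so the genes that build and attach it were described. Of 26 tested genes of this list, 5 rose and 13 fell in ICI libraries, against 35% and 33.9% of all genes tested, with a median log2 fold change of -0.28. With library totals alone 8 rose and 7 fell, so the list has no direction that holds across normalizations. Piga, of the enzyme that starts the anchor, fell 2.58-fold, at 13.6 ± 2.86 CPM in ICI libraries and 30.4 ± 4.36 CPM in isotype libraries (SD, n = 3 each, edgeR adjusted p = 8.4e-05). Gpaa1, of the transamidase that attaches it, fell 1.71-fold (edgeR adjusted p = 4.48e-05), and Pgap2, which remodels its lipid, 2.11-fold (edgeR adjusted p = 6.23e-06). Pigz, a mannosyltransferase, rose 3.26-fold, at 16.5 ± 3.70 CPM in ICI libraries and 4.39 ± 1.03 CPM in isotype libraries (SD, n = 3 each, edgeR adjusted p = 7.71e-05). These folds are smaller than those of Ly6a and Ly6i. That of Pigz, in the other direction, was larger than those of Ly6c1 (2.62-fold) and Ly6e (1.78-fold). Those of Piga and Pgap2 were larger than that of Ly6e.

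Interferon genes are given because the members are known targets. The lists were chosen with earlier results known. Their counts stand beside 35% of all genes tested called higher and 33.9% called lower in ICI libraries. Of 17 genes of the interferon receptors and their signalling, 4 rose and 10 fell (median log2 fold change -0.55), among them Ifngr2, a chain of the interferon gamma receptor, which fell 1.6-fold (edgeR adjusted p = 3.64e-05), Irf8, which fell 2.19-fold (edgeR adjusted p = 1.15e-05), and Irf9, of the complex that carries the type I signal, which rose 1.81-fold (edgeR adjusted p = 7.54e-06). The interferon gamma response list had 24 of 28 genes that fell and 0 that rose. Its median was -1.98 on the log2 scale, so Ly6a and Ly6i lie beyond that median and Ly6e and Ly6c1 short of it. Single genes of the list fell about as far as Ly6a: Ubd stood at -5.62, Gbp11 at -5.50 and Ido1 at -5.09 on the log2 scale. These genes were scarce in ICI libraries, at means of 0.34 CPM or less. Tap2, of the transporter that loads class I molecules, was at 175 ± 30.9 CPM in ICI libraries and 464 ± 42.0 CPM in isotype libraries (SD, n = 3 each, edgeR adjusted p = 1.98e-05). In the type I interferon response list 3 of 25 genes rose and 10 fell (median -0.46 on the log2 scale); Oas2 rose 3.9-fold (edgeR adjusted p = 5.07e-07) and Ifi44 fell 10.3-fold (edgeR adjusted p = 0.000107). With library totals alone, 9 receptor and signalling genes fell, 23 interferon gamma response genes fell, and 5 type I response genes rose and 9 fell.

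Markers of other cell types, some of which are known to carry Ly6a or Ly6c1, were summed. The sort for CD45-positive, CD90.2-negative cells would remove endothelial cells, fibroblasts and cardiomyocytes, which lack CD45, and T cells, which carry CD90.2. Of 12 tested endothelial markers 8 were higher and 1 lower in ICI libraries, against 35% and 33.9% of all genes tested. The summed level of all 15 was 57.5 to 78.4 CPM in ICI libraries and 144 to 204 CPM in isotype libraries, and without Flt1, the only marker that fell, 46.3 to 68.0 CPM in ICI libraries and 23.4 to 33.0 CPM in isotype libraries. Flt1, which encodes VEGF receptor 1, was at 10.1 to 16.1 CPM in ICI libraries and 111 to 177 CPM in isotype libraries. Pecam1 was at 13.25 to 25.3 CPM in ICI libraries and 14.55 to 21.9 CPM in isotype libraries. Vwf was at 5.57 to 8.91 CPM in ICI libraries and 2.51 to 5.79 CPM in isotype libraries, and neither passed the test. The scarcer markers Cdh5 and Cldn5 were at 0.886 to 1.58 CPM and 0.132 to 0.511 CPM in ICI libraries. In isotype libraries they were at 0.456 to 0.527 CPM and 0.0338 to 0.284 CPM.

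Among the lists for T cells, natural killer cells, group 2 innate lymphoid cells and plasmacytoid dendritic cells, set against 35% of all tested genes called higher and 33.9% lower, only the natural killer list went wholly one way. Of 6 tested T cell markers 3 were higher and 1, Trac, lower, with a summed level of 24.2 to 38.7 CPM in ICI libraries and 5.52 to 7.94 CPM in isotype libraries. Most of the sum in ICI libraries came from Cd4 (mean 14.3 CPM) and Lck (11.9 CPM). Cd3e was at 0.295 to 0.614 CPM in ICI libraries and 0.162 to 0.553 CPM in isotype libraries. All 7 natural killer markers were higher, summing to 75.8 to 118 CPM in ICI libraries and 28.6 to 38.1 CPM in isotype libraries. Of 5 tested markers of group 2 innate lymphoid cells 3 were higher and 1 lower, summing to 64.9 to 88.3 CPM in ICI libraries and 26.2 to 29.5 CPM in isotype libraries, with Il13 at 0 in all libraries and Il5 at 0 in isotype libraries. Of 6 tested plasmacytoid dendritic cell markers 3 were higher and 2 lower, summing to 241 to 273 CPM in ICI libraries and 151 to 157 CPM in isotype libraries. Most of this sum came from Tcf4 (means of 141.9 CPM in ICI and 32.4 CPM in isotype libraries) and Bst2 (94.6 and 113.5 CPM). Siglech was at 15.6 and 1.18 CPM.

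Plasma cell, stem cell, neutrophil, monocyte and macrophage lists differed in direction, beside 35% of all genes tested called higher and 33.9% lower. Of 7 plasma cell markers 2 were higher and 2 lower, summing to 329.6 to 353 CPM in ICI libraries and 379.9 to 417 CPM in isotype libraries. Most of this sum came from the lower markers, Xbp1 (means of 264 CPM in ICI and 286 CPM in isotype libraries) and Prdm1 (51.9 and 98.8 CPM). Mzb1 and Tnfrsf17 were higher, with Tnfrsf17 at 0 in isotype libraries. Of 5 tested stem and progenitor markers 3 were higher and 1, Procr, lower, summing to 37.6 to 52.8 CPM in ICI libraries and 54.0 to 67.9 CPM in isotype libraries. The lower sum in ICI libraries came from Procr, at means of 3.32 CPM in ICI and 42.25 CPM in isotype libraries. Kit was not called (20.0 and 15.5 CPM), and Cd34 was among the higher markers (9.84 and 0.92 CPM). Of 10 neutrophil markers 5 were higher and 1, Ly6g, lower, summing to 554 to 607 CPM in ICI libraries and 402 to 495 CPM in isotype libraries. Of 8 classical monocyte markers, Ly6c2 among them, 6 were lower and 0 higher, summing to 871 to 1143 CPM in ICI libraries and 4259 to 9005 CPM in isotype libraries. All 10 resident macrophage markers were higher, summing to 9319 to 10851 CPM in ICI libraries and 254 to 326 CPM in isotype libraries.

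Markers of non-immune heart cells and red cells were summed in the same way, beside the same 35% higher and 33.9% lower over all genes tested. Of 9 fibroblast markers 7 were higher and 1 lower, summing to 521 to 961 CPM in ICI libraries and 726 to 1052 CPM in isotype libraries, most of it from Gsn (gelsolin), which was lower, at 559 ± 172 CPM in ICI libraries and 858 ± 164 CPM in isotype libraries (SD, n = 3 each). All 6 tested cardiomyocyte markers were higher, summing to 32.2 to 40.3 CPM in ICI libraries and 4.75 to 12.04 CPM in isotype libraries, as were all 4 tested erythroid markers, at 19.3 to 38.8 CPM in ICI libraries and 0.325 to 2.56 CPM in isotype libraries. The part of any of these cell types in the Ly6 values was not tested.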

How the data were processed

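RNA of sorted cells from 6 libraries, 3 labelled ICI and 3 labelled isotype, was made into non-directional SMART-seq V4 libraries, per the labels' protocols. The authors deposited raw counts for 57010 Ensembl genes, which entered the tests as they stand; STAR 2.7.10a, Salmon 1.10.1 and GRCm39 are named, without roles, per the submitters' processing notes. Total counts of 21528274 to 30736316 bound the precision. Symbols came from a name table (91.3% of identifiers matched). The sources used here do not say whether replicates are separate animals or pools, so p-values measure the spread between these samples; no replicates agreed within sampling noise (chi-square at least 12.6 per degree of freedom).

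The test was edgeR 4.0.16 (quasi-likelihood F test, TMM factors, robust dispersions, minimum count 10, Benjamini-Hochberg over 14575 genes; R 4.3.3), checked on simulated data; SEs come from fold change and F statistic. Alternatives were RLE, upper-quartile and no factors, no filter, a strict filter (50 counts in 3 libraries), DESeq2 1.42.0, limma-voom (limma 3.58.1), a replicate block, each library left out, libraries numbered 1 and 2 only, a length trend removed (lowess span 0.3) and sums of like genes. CPM is per library total. Coding sequences were aligned globally with Biopython 1.88 (match 2, mismatch -1, gap -5 and -1). Members and lists were chosen with earlier results of these data known. Named besides the members were Ly6c2, family genes of at least 1 CPM, genes of small p or high level from each list, and 3 nearest genes per member. Ly6g, Gpihbp1, Ly6g6d, Lypd6b, Cdh5, Cldn5 and Cd3e lie outside this rule and were named after their values were seen. No library was dropped. Coding sequences were compared in place of proteins.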

Additional observations from a re-analysis of the deposited data

How the results depend on the processing

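All 4 members and Ly6c2 were lower in ICI libraries under each of 16 alternative fits, which gave log2 fold changes of -5.29 to -4.66 for Ly6a, -4.72 to -3.89 for Ly6i, -1.58 to -0.86 for Ly6c1, -0.97 to -0.63 for Ly6e and -3.57 to -2.69 for Ly6c2. Shifts beyond the spread between replicates came with the transcript length trend removed (-4.66 for Ly6a, -0.86 for Ly6c1 and -2.69 for Ly6c2) and from summing like genes, which by construction follows the abundant partner: Ly6c1 with Ly6c2 gave -3.20, Ly6a with Ly6i -5.0, and all 5 genes -1.98. Family genes called higher numbered 2, but 4 without the filter (Ly6g6d and Lypd6b entered), 1 with the strict filter (Gpihbp1 was no longer tested) and 2 to 4 with a library left out. The split of all calls was 5102 higher and 4938 lower, and 6155 and 3849 with upper-quartile factors or 6255 and 3724 with library totals alone.

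Same-numbered libraries of the groups correlated at 0.034, 0.062 and 0.128 in their deviations from group means. ICI replicates 1 and 3 correlated best with the isotype library of the same number, and ICI replicate 2 with isotype replicate 1 (0.09). The replicate 3 libraries, with the highest value, were also alike in sex-linked counts. All values were low and the best matches did not all share a number, so the numbers were not taken as pairs. With the replicate block the log2 fold changes were -5.16 for Ly6a, -4.37 for Ly6i, -1.39 for Ly6c1, -0.85 for Ly6e and -3.25 for Ly6c2, with 5079 genes called higher and 4912 lower and 2 and 3 family genes. Depth limits Ly6c1 and the 17 family genes too scarce to test.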
